A study of Homo sapiens with 2 samples.

Results

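A total of 1850 of the 20499 NUDT21 eCLIP peaks lay, by their midpoint, both in the 3'UTR of one annotated transcript and in coding sequence (CDS) of another. Their share was 9.02% of all peaks (8.64 to 9.43, an exact Clopper-Pearson interval at 95%, as are those below), 33.0% (31.8 to 34.3) of the 5602 peaks with a midpoint in any 3'UTR and 29.2% (28.0 to 30.3) of the 6343 with a midpoint in any CDS. They were chosen by position alone, against protein-coding genes of GENCODE 44 other than readthrough genes, so their height took no part in the choice. Gene and sequence entered through the annotation, since only 9226 of the 19396 genes had any sequence that was both CDS and 3'UTR. The amount of such sequence also differed between genes. The other coding peaks (4493, called CDS-only) and the other 3'UTR peaks (3752, called 3'UTR-only) served for comparison.

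The series consisted of 1 library made with a NUDT21 antibody and 1 input library, both from J-Gamma1, a derivative of the Jurkat line without phospholipase C gamma 1, labelled T-ALL, an acute leukemia of the T-cell lineage. Cells of both groups were placed on ice, given 2 irradiations of 400 mJ at 254 nm, lysed for 15 min and digested for 5 min with 40 U of RNase I at 37 °C. In eCLIP, the light crosslinks protein to RNA and the antibody recovers the bound fragments for sequencing. Results rest on the peaks of the antibody library, with the input library not analysed here. There was no replicate and hence no test between conditions, and the intervals reflect counting error alone. Depth was unknown in the absence of read totals, and peaks, which carry no strand, were given to genes by position. Of 12 T-cell marker genes, 3 held a CDS or 3'UTR peak (CD3E, PTPRC and GATA3) and 9 held none, CD3D, CD2 and LCK among them. None of 6 B-cell, 6 myeloid and 4 erythroid markers held one.

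NUDT21 is the subunit of cleavage factor I that reads UGUA in nascent RNA, and it acts on the choice of poly(A) site in the 3'UTR. A stretch of RNA can be coding in one transcript and 3'UTR in another when alternative splicing moves the stop codon upstream. Transcripts with such an early stop and a splice junction well downstream of it are targets of nonsense-mediated decay (NMD), which destroys them during translation. Genes for splicing factors are known to make such transcripts from so-called poison exons, and in these transcripts the coding exons after the early stop are annotated as 3'UTR.

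The sequences below come from the peaks on which the results turn, read from hg38 on the gene strand, 5′ to 3′, with T for U. Each line gives 30 nt of 1 peak, around the UGUA nearest to the middle of the peak, or around its middle where the peak held none. Capitals mark TGTA (UGUA, the NUDT21 motif), AATAAA (the poly(A) signal) and GAAGAA (a purine-rich hexamer of exonic splicing enhancers). The first set shows the 6 peaks of the class with a deposited false discovery rate (FDR) under 0.05.
SRSF11, chr1:70250484-70250513, plus strand: agagtgataaagaTGTAaaagtatgtttac
LUC7L3, chr17:50745880-50745909, plus strand: gtgacagagaaaGAAGAAagagaagtcgtt
NUCB2, chr11:17315481-17315510, plus strand: agaacctactctaaatgagaTGTAtggttc
DNMT1, chr19:10162669-10162698, minus strand: agatttctgatgaaaaagacgaggatgaaa
ATP2A2, chr12:110326462-110326491, plus strand: acatgctgttttcTGTAagtactttatgaa
LUC7L3, second peak, chr17:50744785-50744814, plus strand: aaattaaagctacTGTAGAAGAAttaaaag

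The next set shows the peaks of UBE2D3, the ubiquitin-conjugating enzyme gene on which the study centred, and peaks that held a UGUA beside a poly(A) signal.
UBE2D3, exon 5, chr4:102802599-102802628, minus strand: catatcaaggcggTGTAttctttttgacaa
UBE2D3, exon 7, chr4:102799404-102799433, minus strand: acggatctataaaacagacagagataagta
UBE2D3, exon 8, chr4:102797414-102797443, minus strand: gggaatggactcagaagtatgccatgtgat
RBM39, chr20:35705262-35705291, minus strand: tgtgattGAAGAATGTAATAAAcatggagg
ITGB1, chr10:32929900-32929929, minus strand: agaaaAATAAAaaTGTAaccaaccgtagca
CPSF6, chr12:69256779-69256808, plus strand: aatcctgtTGTAactccatgcAATAAAcag

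Most peaks of this class owed their 3'UTR to NMD transcripts and lay in ordinary coding exons. For 1588 of the 1850 (85.8%, 84.2 to 87.4), every transcript that placed the midpoint in a 3'UTR was annotated as an NMD transcript. NMD transcripts and other transcripts with a CDS (non-NMD) both did so for 131 peaks (7.08%, 5.95 to 8.35), and only non-NMD transcripts did so for another 131. In the MANE Select transcript, the single reference transcript agreed on for a gene, the midpoint lay in CDS alone for 1758 peaks (95.03%, 93.9 to 96.0). It lay in the 3'UTR of the reference for 39 (2.11%, 1.503 to 2.87), in the CDS of one reference and the 3'UTR of another for 34, and in neither for 19. These shares were not set beside those of all annotated sequence with both labels, so they describe the annotation at the peaks alone. CDS and 3'UTR belonged to the same gene for 1805 peaks. Of the 45 remaining, 34 lay where genes on opposite strands overlapped, and the gene of these cannot be told without strand.

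**Figure D1:**
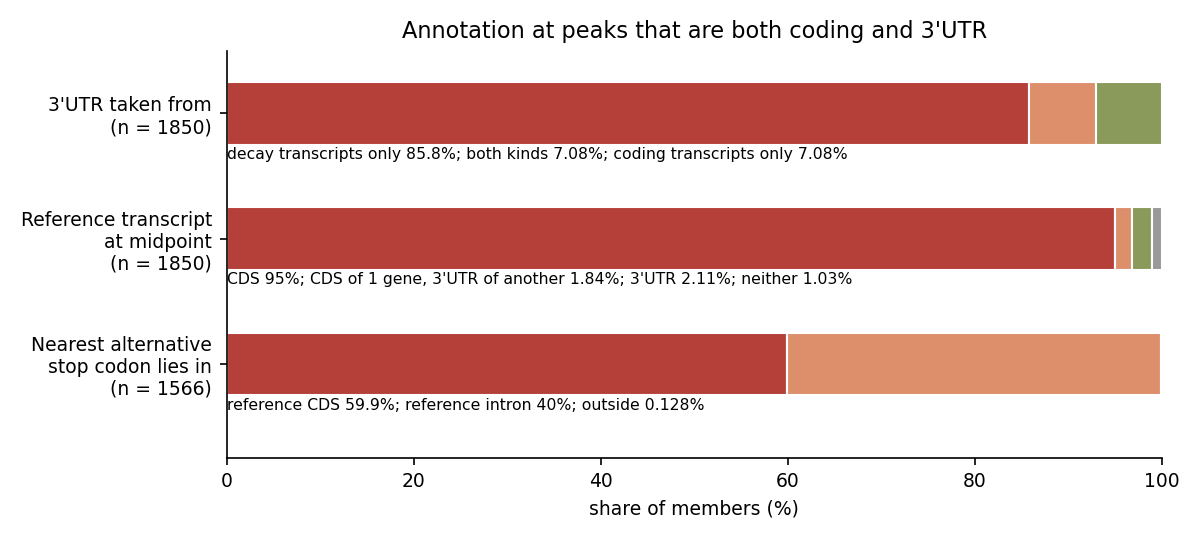
Shares of the peaks that are both coding and 3'UTR, in percent, by the kind of transcript that makes the 3'UTR, by the part of the MANE Select reference transcript at the midpoint, and, for 1566 peaks with an NMD-only 3'UTR, by the place of the nearest upstream stop codon. NMD transcripts alone account for 85.8% and reference CDS alone for 95.03%.

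Coding transcripts outnumbered the alternative ones at most of these positions. More transcripts had the midpoint in CDS than in a 3'UTR for 1399 peaks (75.6%, 73.6 to 77.6), and fewer did for 201 (10.9%, 9.48 to 12.4). A single 3'UTR transcript gave the label to 994 peaks (53.7%, 51.4 to 56.0). At least 1 of the 3'UTR transcripts had the highest annotated support level for 530 peaks (28.6%, 26.6 to 30.8), while 943 (51.0%, 48.7 to 53.3) had none at support level 1 or 2. Whether any of these transcripts was present in J-Gamma1 cells was not measured here.

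The early stop codon lay mostly in reference CDS or in a reference intron. Its place was read for 1566 peaks with an NMD-only 3'UTR, a midpoint in reference CDS alone and both labels in the same gene, taking the alternative transcript whose stop lay nearest upstream. In 938 (59.9%, 57.4 to 62.3) that stop lay within the CDS of the reference. In 934 of these it was out of the reference frame, which the choice nearly fixes, since a stop in frame would end the reference CDS. In 626 (40.0%, 37.5 to 42.4) the nearest alternative stop lay in sequence that is intron in the reference, which includes poison exons, retained introns and extended exons. In the other 2 it lay outside the reference transcript. The median spliced distance from stop to midpoint was 482 nt (quartiles 166 and 1096.5) for the former and 776.5 nt (322.25 and 1772.5) for the latter. Fold enrichment over the local background had a median of 2.37 in both groups. In 261 of the 1566 (16.7%, 14.9 to 18.6) the midpoint lay in the last exon of that alternative transcript.

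In height these peaks stood beside CDS-only peaks rather than 3'UTR-only peaks. The fold enrichment had a median of 2.37 (quartiles 2.07 and 2.71), against 2.37 (1.99 and 2.67) in CDS-only and 1.98 (1.39 and 2.37) in 3'UTR-only peaks. A fold enrichment of at least 2 was found in 1459 (78.9%, 76.9 to 80.7), where 38.0% of all peaks passed that limit, 73.8% (72.4 to 75.04) of CDS-only and 48.6% (47.0 to 50.2) of 3'UTR-only peaks. The deposited Score, whose unit is not stated, took 44 values that were whole multiples of 0.228, called a step here. Peaks of 5 or more steps numbered 1577 (85.2%, 83.5 to 86.8), where 42.3% of all peaks reached 5 steps, 81.1% (80.0 to 82.3) of CDS-only and 56.9% (55.3 to 58.5) of 3'UTR-only peaks. An FDR under 0.05 was reached by 6 (0.324%, 0.119 to 0.705), where 0.0927% of all peaks did so, and by 10 of the CDS-only and 0 of the 3'UTR-only peaks. For 1825 of the 1850 peaks (98.6%, 98.0 to 99.1) the FDR was 1.

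**Figure D2:**
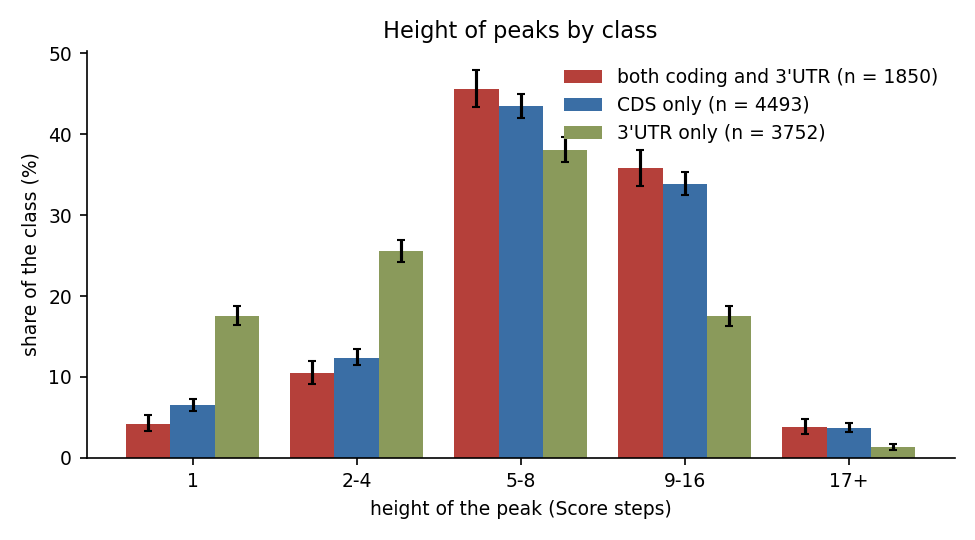
Share of each class of peaks, in percent, against height in Score steps, with exact 95% intervals as bars. Peaks both coding and 3'UTR (n = 1850) and CDS-only peaks (n = 4493) fall mainly at 5 to 16 steps, while 3'UTR-only peaks (n = 3752) have larger shares at 1 and at 2 to 4 steps.

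The share of coding peaks that also carried a 3'UTR label was lowest among the lowest peaks. Of coding peaks with 1 step, 21.1% (17.1 to 25.7) carried it, and of those with 2 to 4 steps, 25.9% (22.8 to 29.2). The share among peaks of 5 to 8 steps was 30.2% (28.5 to 31.9), among those of 9 to 16 it was 30.3% (28.4 to 32.3), and above that it was 29.4% (23.7 to 35.6). From 5 steps upward the intervals overlapped widely. The peaks were short, with a median of 80 nt (58 to 120.75), against 83 nt in CDS-only and 111 nt in 3'UTR-only peaks. A recurring distance of 476 nt between the starts of neighbouring peaks touched 7.89% (6.70 to 9.22) of them, against 8.12% (7.34 to 8.96) of CDS-only and 19.5% (18.3 to 20.8) of 3'UTR-only peaks.

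Within the class, peaks were lower where non-NMD transcripts alone made the 3'UTR. Peaks with an NMD-only 3'UTR had a median fold enrichment of 2.37 (quartiles 2.09 and 2.75), and 86.6% (84.8 to 88.2) of them had 5 or more steps. Where the 3'UTR came only from non-NMD transcripts, the median was 2.18 (1.77 and 2.47), and 71.0% (62.4 to 78.6) had 5 or more steps. Peaks with both kinds stood between, with a median of 2.28 and 83.2% (75.7 to 89.2). The 39 peaks in the 3'UTR of the reference had a median of 2.19.

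Against the amount of annotated sequence, both kinds of coding sequence held peaks at close rates. Of 35.9 Mb of annotated CDS, 7.92 Mb (22.1%) was also 3'UTR of the same gene. In the 2348 genes with both kinds of coding sequence and any CDS or 3'UTR peak, the stretches with both labels held 700.3 peaks per Mb and the CDS-only stretches 645.2 peaks per Mb. The ratio was 1.09, with an interval of 1.02 to 1.16 that takes peaks as independent, which neighbouring peaks of a gene are not. When the reference CDS was divided into 3 equal parts, sequence with both labels held 617.5, 676.8 and 789.7 peaks per Mb in the first, middle and last part, and CDS-only sequence held 658.5, 726.0 and 772.5. Both kinds thus held most peaks per Mb in the last part. The ratio of the rates within the parts was 0.938 (0.823 to 1.07), 0.932 (0.834 to 1.04) and 1.02 (0.920 to 1.14), intervals that include 1 each time. The last part held 1.07 Mb of sequence with both labels, against 0.528 Mb in the first, as sequence with both labels must follow an early stop.

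The position of the peaks showed the same downstream placement, which the rule itself favours. For the 1792 with a midpoint in reference CDS, the median lay 65.4% along the coding sequence (quartiles 40.8 and 85.4), against 46.2% (22.0 and 73.0) for 4412 CDS-only peaks. The exon that held the midpoint had a median length of 191 nt, against 225 nt. The whole peak lay inside 1 coding exon of the reference in 56.9% (54.6 to 59.2), against 60.4% (59.0 to 61.9) of CDS-only peaks. It was made of reference exon throughout in 60.9% (58.6 to 63.2), against 63.9% (62.5 to 65.4).

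Annotated transcript ends lay near many of these peaks. Within 150 nt of an annotated end of the gene lay 33.0% (30.9 to 35.2) of them, against 17.4% (16.3 to 18.5) of CDS-only and 24.2% (22.8 to 25.6) of 3'UTR-only peaks. The sequence itself was close to ends as well. When the stretches with both labels in the same genes were tiled in windows of 100 nt, 26.7% (25.9 to 27.6) of 10530 windows had an end within that distance. These ends include those of NMD and noncoding transcript models, and no measurement of poly(A) site use was analysed here.

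The share of these peaks with UGUA was near that of coding sequence of the same kind and under that of 3'UTR-only peaks. Of 1796 peaks with a single gene strand, 395 (22.0%, 20.1 to 24.0) held UGUA on that strand, a density of 2.71 per kb. The density was 2.32 per kb in CDS-only and 5.52 per kb in 3'UTR-only peaks. Lengths differed between the classes, so windows of 100 nt at the midpoint were compared. UGUA was present in 22.3% (20.4 to 24.3) of the windows, against 21.0% (19.8 to 22.2) in CDS-only and 41.6% (40.0 to 43.2) in 3'UTR-only peaks. In 3'UTR-only sequence it was in 41.2% (40.6 to 41.8) of windows in genes with a peak of the class. Over all genes that share was 38.4% (38.3 to 38.6). Of all 50871 windows of 100 nt in annotated sequence with both labels, 20.8% (20.5 to 21.2) held UGUA, and of the 10530 in genes with such a peak also 20.8% (20.03 to 21.6). On the opposite strand the share in peaks was 27.6% of windows, above that on the gene strand. The same held for CDS-only peaks (26.7%) and for windows of sequence with both labels in the same genes (28.7%).

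The poly(A) signals AAUAAA and AUUAAA were rare. In windows of 100 nt on the gene strand, AAUAAA was found in 3.90% (3.05 to 4.90), against 3.37% (3.03 to 3.73) in windows of the same kind of sequence in the same genes and 7.89% (7.04 to 8.81) in 3'UTR-only peaks. AUUAAA was found in 3.06% (2.32 to 3.97), against 2.95% (2.64 to 3.29) and 5.88% (5.14 to 6.69). Over all 50871 windows these signals were in 2.92% and 2.30%. In 3'UTR-only sequence of genes with a peak of the class they were in 9.40% and 6.73% of windows. The 3'UTR-only peaks did not exceed these shares.

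The hexamer GAAGAA was found in a larger share of peaks than of sequence of the same kind, in this class, in CDS-only and in 3'UTR-only peaks. It was present in 16.9% (15.2 to 18.7) of the windows, against 13.7% (13.0 to 14.4) for the same kind of sequence in the same genes, 10.8% (10.6 to 11.1) for all such sequence, 13.9% (12.9 to 15.0) in CDS-only and 5.53% (4.81 to 6.31) in 3'UTR-only peaks. For CDS-only peaks, the CDS-only sequence of genes with a peak of the class held it in 11.6% (10.9 to 12.4) of windows and all CDS-only sequence in 9.17% (9.04 to 9.29). On the opposite strand it was in 4.06% of the windows of peaks with both labels. The purine content on the gene strand had a median of 54.9% in the peaks and 53% in windows of the same sequence in the same genes, and the GC content had medians of 48.1% and 49%. All motifs were searched as spelled, on both strands, and UGUA and AAUAAA can overlap, as they did in the RBM39 peak shown above.

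**Figure D3:**
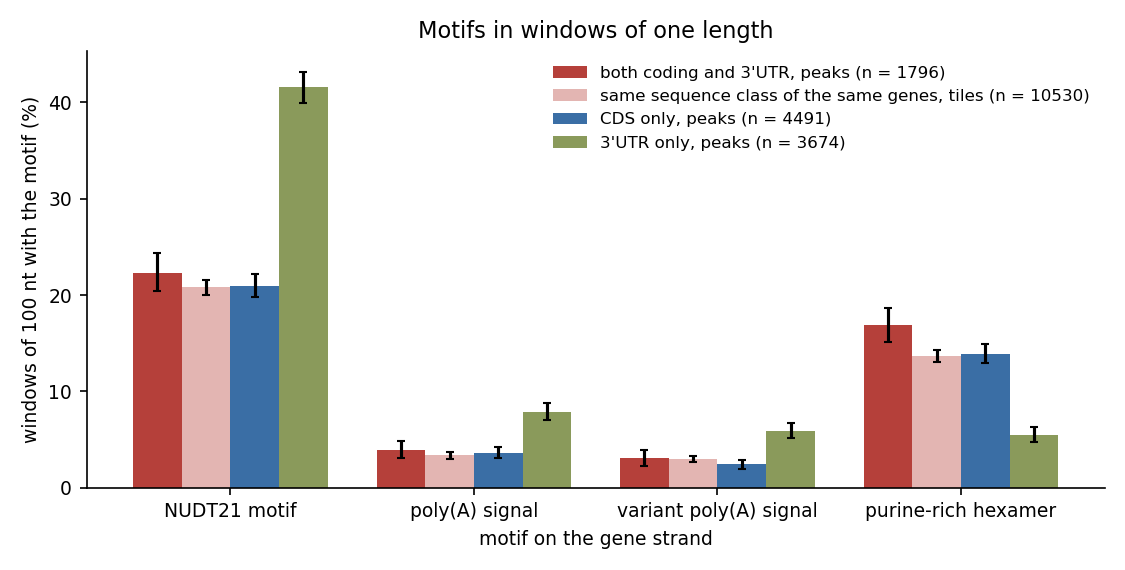
Share of windows of 100 nt, in percent, that held the NUDT21 motif, the poly(A) signal or its variant, or the purine-rich hexamer on the gene strand, with exact 95% intervals as bars. Peaks both coding and 3'UTR lie near CDS-only peaks and near tiles of the same sequence for UGUA, at 22.3%, 21.0% and 20.8%, and 3'UTR-only peaks lie higher, at 41.6%. Windows of 3'UTR-only sequence in genes with a peak of the class, not drawn, held UGUA in 41.2%.

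The 6 peaks with an FDR under 0.05 were all NMD-only and all in the CDS of the reference transcript, against 85.8% and 96.9% of the class. For 6 of 6 the interval was 54.1 to 100, which includes both shares. The highest of these peaks lay in exon 11 of 12 of SRSF11, an SR-family splicing factor (chromosome 1, 70250383 to 70250515, fold enrichment 6.57, 30 steps, FDR 0.00902). Its 3'UTR label came from 1 NMD transcript, while 4 transcripts coded there. LUC7L3, a protein of the U1 snRNP, had peaks in exon 8 of 10 (chromosome 17, 50745755 to 50746034, 6.52, 27 steps, FDR 0.00159) and exon 7 (50744674 to 50744845, 4.84, 18 steps, FDR 0.0116). These were neighbouring exons, and together the peaks held 5 GAAGAA and 1 UGUA.

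NUCB2, which encodes a calcium-binding protein, had a peak in exon 11 of 14 (chromosome 11, 17315424 to 17315510, 6.45, 28 steps, FDR 0.00408). Another peak lay in exon 10 (17312062 to 17312149, 4.83, 38 steps, FDR 0.396), so the higher Score went with the lower fold enrichment. DNMT1, the maintenance DNA methyltransferase, had its highest peak in exon 13 of 41 (chromosome 19, 10162629 to 10162737, 5.85, 25 steps, FDR 0.0296), only 64 nt after the alternative stop. ATP2A2, the calcium pump of the endoplasmic reticulum, had a peak in exon 7 of 20 (chromosome 12, 110326405 to 110326496, 5.77, 23 steps, FDR 0.00447).

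The other peaks among the 12 with the highest fold enrichment were, with the second of NUCB2, NMD-only peaks in reference CDS, like 85.2% of the class. Their FDR was above the limit. THOC2, a subunit of the mRNA export complex THO, had a peak in exon 35 of 39 (fold enrichment 5.05). NOP58, a core protein of box C/D snoRNPs, had peaks in exon 11 of 15 (4.86) and exon 4 (4.52). PTMA, prothymosin alpha, had a peak in exon 3 of 5 (4.84), whose midpoint was 1 nt from an annotated transcript end. HSP90B1, the endoplasmic reticulum chaperone GRP94, had a peak in exon 17 of 18 (4.60) with 6 GAAGAA. At that position 9 transcripts were 3'UTR and 7 coding, the only one of the 12 with more 3'UTR than coding transcripts. None of the 5 peaks of THOC2, NOP58, PTMA and HSP90B1 held UGUA.

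By gene, the 1805 peaks with both labels in the same gene lay in 921 genes, 9.98% of the 9226 with any sequence of this kind. A single peak was present in 592 genes (64.3%, 61.1 to 67.4) and 5 or more in 68. The 10 genes with most of them held 172, 9.30% of the class. The last places were tied, since 4 genes held 12 each, and ATAD2 and KMT2E were listed before MYH10 and SETD5 by symbol. In 556 of the 921 genes (60.4%, 57.1 to 63.5) there was no 3'UTR-only peak, so all their 3'UTR peaks by midpoint lay in sequence that is also coding. A CDS-only peak was present in 310 of the 921. In 150 of these the median fold enrichment was higher for the peaks with both labels, in 159 it was lower and in 1 equal.

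In the 10 genes with most peaks, between 3985 and 12536 nt of coding sequence was also 3'UTR of some transcript. With NMD transcripts omitted, MYO18A and SPEN kept 1 peak each and the other 8 genes none. ANKRD11, a chromatin regulator with ankyrin repeats, held 25 peaks with fold enrichments of 1.94 to 3.63, and 8286 nt of its sequence was both CDS and 3'UTR against 180 nt that was CDS only. It had no CDS-only and no 3'UTR-only peak. When peaks within 100 nt were merged, ANKRD11 held 12, fewer than IGF2R (23), DNMT1 (18), DYNC1H1 (18), SPEN (15) and MYO18A (13). IGF2R, the cation-independent mannose 6-phosphate receptor, held 24 (2.19 to 3.61) with 5 CDS-only and 3 3'UTR-only peaks. Its rate was 4.42 peaks per kb of sequence with both labels and 2.34 per kb of CDS-only sequence.

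DNMT1 held 19 peaks (2.09 to 5.85), and SPEN, a transcriptional repressor, held 19 (1.87 to 3.19). DYNC1H1, the dynein heavy chain, held 18 (2.09 to 2.99). KMT2D, a histone H3K4 methyltransferase, held 15 (1.91 to 3.06) beside 20 CDS-only peaks, at 1.81 and 2.36 per kb, with median fold enrichments of 2.37 and 2.36. NOTCH1, the receptor most often mutated in T-ALL, held 15 (2.05 to 3.46) with 1 CDS-only peak. MYO18A, an unconventional myosin, held 13, and ATAD2, a bromodomain ATPase, and KMT2E held 12 each. ATAD2 had the highest median of the 10 genes, 3.13, and NOTCH1 the lowest, 2.27.

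**Figure D4:**
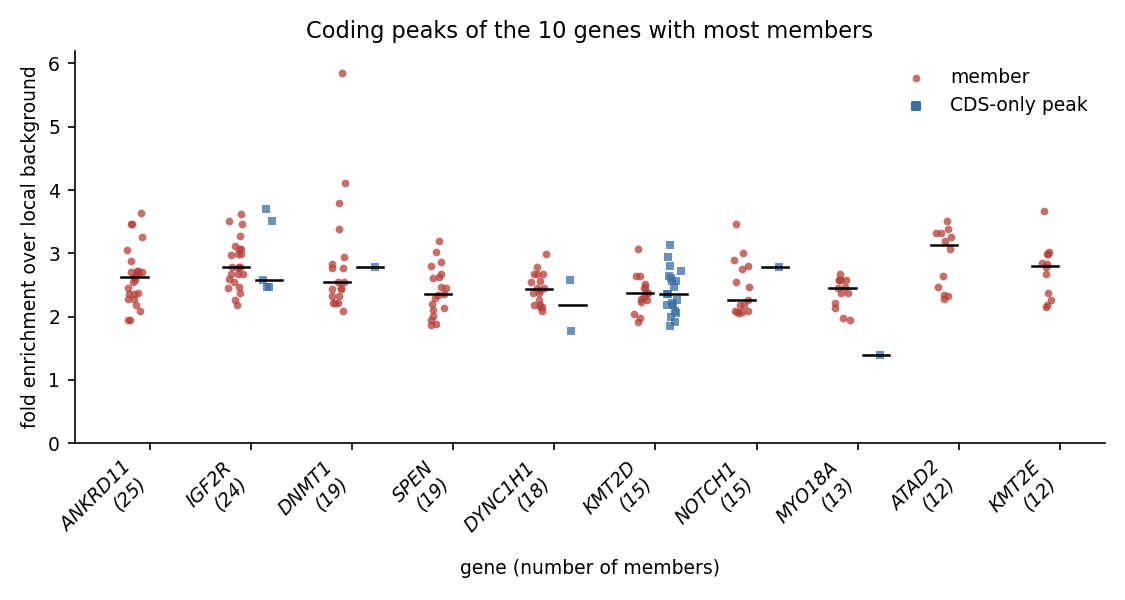
Fold enrichment over the local background of each coding peak in the 10 genes with most peaks of the class, with the median as a line. Circles are peaks both coding and 3'UTR and squares are CDS-only peaks. DNMT1 holds the highest, at 5.85, and in KMT2D both kinds spread over the same range.

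UBE2D3, which has 26 transcripts with a CDS, 7 of them NMD transcripts, held 3 of these peaks and no other CDS or 3'UTR peak by midpoint. All 3 lay in the CDS of the reference transcript. That in exon 7 of 8 (chromosome 4, 102799388 to 102799448) had a fold enrichment of 2.44 and 8 steps, and it was 3'UTR in 2 NMD transcripts and CDS in 15 transcripts. Its midpoint was 11 nt from the end of such an NMD transcript. The peak in exon 8 (102797405 to 102797452, 2.37, 8 steps) was 3'UTR in 1 NMD and 1 protein-coding transcript and CDS in 14, and it was 97.1% along the coding sequence. The peak in exon 5 (102802558 to 102802672, 1.61, 3 steps) was 3'UTR in 7 transcripts and CDS in 19, 3 nt from an annotated end. It held the single UGUA of the 3 peaks, and all had an FDR of 1. Of the 12 peaks of the gene, none had its midpoint in the reference 3'UTR. The peak in exon 8 crossed the stop codon and reached the first bases of that 3'UTR.

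**Figure D5:**
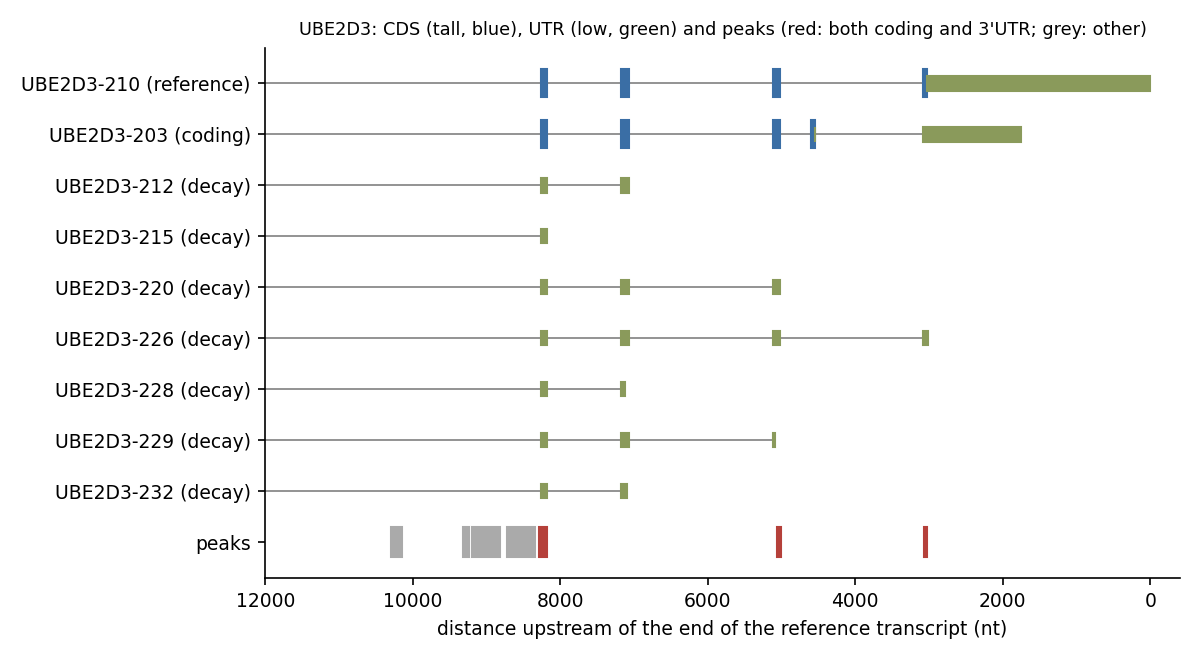
Map of the downstream end of UBE2D3, with distance upstream of the end of the reference transcript in nt. Rows show the reference transcript, the 8 transcripts with a peak in their 3'UTR and, at the bottom, the peaks. The 3 peaks both coding and 3'UTR (red) sit on coding exons 5, 7 and 8 of the reference, and its long 3'UTR at the right holds no peak beyond the edge of the one in exon 8.

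Among the other genes of 3' end processing, CPSF6, the partner of NUDT21 in cleavage factor I, held 4 peaks of the class, in exons 4 to 7 of 10. Their fold enrichments were 2.21, 3.26, 3.94 and 3.12 in exon order, and the one in exon 6 (chromosome 12, 69258710 to 69259125) was the highest. All 4 were NMD-only, against 85.8% of the class, from 1 NMD transcript whose stop lay in a reference intron. Of the 4, 3 held 1 UGUA each. CPSF6 also held 8 3'UTR-only peaks and 1 CDS-only peak. NUDT21 and CPSF7 held none of the class. In the whole list of 23 cleavage and polyadenylation genes, 14 held a CDS or 3'UTR peak and 3 held one of the class, CPSF6, FIP1L1 and PAPOLA. They had 6 of the 57 peaks of that list (10.5%, 3.96 to 21.5), where over all genes 18.3% (17.6 to 19.1) of CDS and 3'UTR peaks were of the class. Without CPSF6 it was 2 of 44 (4.55%, 0.555 to 15.5).

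Of 14 SR splicing factor genes, known for poison exons, 9 held a CDS or 3'UTR peak and 6 held one of the class: SRSF1, SRSF4, SRSF5, SRSF9, SRSF11 and TRA2B. They had 13 of 50 peaks (26%, 14.6 to 40.3), an interval that includes the share over all genes. Their fold enrichments had a median of 3.25 (2.28 to 6.57), and 6 lay in SRSF11. Of 26 hnRNP genes, 16 held a CDS or 3'UTR peak and 7 held one of the class, with 11 of 75 peaks (14.7%, 7.56 to 24.7), a median of 2.62 and a highest value of 2.90 in HNRNPK. SYNCRIP held most of these, 3.

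The T-ALL genes had 25 of 75 peaks in the class (33.3%, 22.9 to 45.2), against 18.3% over all genes, and 15 of the 25 were in NOTCH1. Without NOTCH1 the list had 10 of 56 (17.9%, 8.91 to 30.4). All 25 were NMD-only, against 85.8% of the class, and all had a fold enrichment of at least 2, against 78.9%. Neither trait was particular to this list. NMD-only were 30 of 30 peaks of the DNA methylation and replication genes, 11 of 13 SR and 10 of 11 hnRNP peaks. The cleavage and polyadenylation list had 5 of 6 and the ubiquitin-conjugating list 3 of 4. In the same order, 28, 13, 11, 6 and 3 of the peaks had a fold enrichment of at least 2. EZH2, a histone methyltransferase, held 3, PHF6 and USP7 held 2 each, and MYB, RUNX1 and KMT2A held 1 each. RUNX1 had the highest, in its last exon (chromosome 21, 34792191 to 34792581, fold enrichment 3.53). The genes of DNA methylation and replication had 30 of 61 (49.2%, 36.1 to 62.3), 19 of them in DNMT1, 5 in POLE and 4 in MCM4. Without DNMT1 they had 11 of 40 (27.5%, 14.6 to 43.9), an interval that includes the 18.3% over all genes. The amount of sequence with both labels differed between genes. It was 4879 nt in DNMT1 beside 575 nt of CDS-only sequence, and 6968 nt in NOTCH1 beside 849 nt. UHRF1, PCNA, MCM6 and TOP2A had none. The list shares were not adjusted for this amount. In the ubiquitin-conjugating enzymes, 4 of 26 peaks (15.4%, 4.36 to 34.9) were of the class, 3 in UBE2D3 and 1 in UBE2G2, and without UBE2D3 it was 1 of 23 (4.35%, 0.110 to 21.9).

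UGUA and AAUAAA occurred together in 13 peaks of 5 or more steps, and 7 of these had a midpoint within 150 nt of an annotated end. The 3 nearest to an end lay in RBM39, a splicing factor, SLC38A2, an amino acid transporter, and ITGB1, integrin beta 1, with midpoints 5, 14 and 6 nt from it. Their fold enrichments were 4.12, 3.84 and 3.46. All 3 were NMD-only peaks in reference CDS, like 85.2% of the class, in exon 15 of 17, exon 10 of 16 and exon 4 of 16. For ITGB1, 1 transcript was 3'UTR and 27 were coding at the midpoint.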

How the data were processed

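Peaks came from 1 NUDT21 antibody library. Per the labels and the study's methods, the authors trimmed reads with fastp, removed duplicates by molecular identifier and rRNA reads, mapped to hg38 and called peaks with MACS2 at a stated q-value of 0.05. The aligner and the control used are not given in the sources used here. Fold enrichment, as deposited, is the ratio of a peak's pileup to its local background. The deposited p-value and FDR are per peak. By that FDR only 19 of the 20499 peaks lay under 0.05, so the deposited peaks as a set do not meet the stated limit by it. The reason was not tested. The deposited Score behaves as a signal (pileup) in whole steps, within 0.0275 of a step. Without strand, overlapping genes cannot be separated, and 1 replicate gives no measure of reproducibility.

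The midpoint of each peak was set against 109340 transcripts with CDS in 19396 protein-coding genes of GENCODE 44, of which 20658 were NMD transcripts. The stop codon counted as coding. hg38 coordinates were counted from 1. No count of reads was available. Shares have exact Clopper-Pearson 95% intervals for counting error. No p-value was computed, since peaks are not replicates. Named were peaks with an FDR under 0.05, the 12 highest by fold enrichment among peaks of 5 or more steps, the 10 genes with most, the 3 nearest to an end with AAUAAA and UGUA, UBE2D3, NUDT21, CPSF6 and CPSF7, and the leading gene and peak of each gene list. The result of 1 gene list is not reported here. The peaks and lists were chosen with earlier results of these data known, and list shares without the leading gene were added after seeing the data. Sequence was read with pysam 0.24.0, intervals came from scipy 1.17.1, tables were handled with pandas 2.3.3 and numpy 2.4.6 in Python 3.11.15, and plots were drawn with matplotlib 3.10.9. The assignment was tested on simulated data.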

Additional observations from a re-analysis of the deposited data

Results flagged for a closer look

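Outside the main chromosomes, in data no comparison here uses, lay 6 peaks, for which no gene model was used.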

How the results depend on the processing

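The number of peaks with both labels was 1850, and it depended above all on the transcripts used: 262 without NMD transcripts and 217 with the basic set of GENCODE. With an FDR under 0.05 it was 6. It lay between 1459 and 2658 in the other alternatives. The NMD-only share, 85.8%, was 100% at an FDR under 0.05, 87.7% at a fold enrichment of at least 2 and 0% with the basic set (0 of 217). The basic set itself decides which transcripts can give a 3'UTR label, so this 0% says nothing about the peaks. The share in reference CDS, 96.9%, was 100%, 82.1% and 82.9% at an FDR under 0.05, without NMD transcripts and with the basic set, and 95.7% with any overlap in place of the midpoint. The UGUA share, 22.0%, was 66.7% at an FDR under 0.05 (4 of 6 peaks), 19.6% at a fold enrichment of at least 2, 19.2% at 5 or more steps, 33.0% with any overlap, 24.0% with peaks within 100 nt merged, 31.8% without NMD transcripts and 33.7% with the basic set. The ratio of median fold enrichments to CDS-only peaks, 1, was in the same order of settings 1.05, 0.978, 1.001, 0.933, unchanged after merging, 0.940 and 0.958. The ratio of peaks per Mb, 1.09, turned to 0.539 (0.144 to 2.02) at an FDR under 0.05, on 6 and 6 peaks, and was 1.49 with any overlap, which counts a peak with both labels if it touches them, 1.18 without NMD transcripts and 1.24 with the basic set. With at least 50% of the peak required, it was 1.05, with an interval of 0.988 to 1.12 that includes 1. For the other moves the cause was not tested. No paired analysis was possible because 1 library alone had a file and no test was made.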
